A study of Mus musculus with 8 samples.

Results

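The collagen chains of the mouse heart were described from poly(A) RNA sequencing of 8 myocardium libraries. A chain was any gene of the deposited gene table whose symbol was Col, a type number, the letter a and a chain number. The rule found 44 of 33249 genes. They were divided into fibrillar (8), cartilage (7), basement membrane (9), FACIT (6), beaded filament (6), short chain (2), transmembrane (4) and other (2) collagens. Of the 44 chains, 29 had a mean FPKM (fragments scaled to transcript length and library size) of at least 0.5 over the libraries and entered the tests, as did 14028 genes in all.

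The 2 sham groups (fl/fl-Sham and CKO-Sham) and the 2 infarct groups (CKO-MI and fl/fl-MI) held 2 libraries each. All mice carried floxed Piezo1 alleles. Mice of the CKO groups also carried Myh6-MerCreMer, a Cre recombinase that is made in cardiomyocytes and activated by tamoxifen, which was given at 4 weeks of age, and the fl/fl groups were littermates lacking Cre. The left anterior descending coronary artery was ligated (myocardial infarction, MI) at 8 weeks of age, and MI hearts were taken on day 42. The labels of the sham libraries give no day. The sources used here do not state whether the littermates received tamoxifen, which region of the myocardium was taken, or that the libraries came from separate animals. The p-values therefore measure only the spread between these libraries, which may be technical.

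A collagen is a triple helix of 3 chains that is folded in the endoplasmic reticulum, secreted and then assembled. Fibrillar types I and III carry most of the tensile load of a scar, and type V sets the diameter of their fibrils. FACIT collagens sit on the surface of fibrils, type VI forms beaded filaments around cells, type IV forms the network of basement membranes, and short-chain type VIII forms lattices beneath endothelium and in remodelling vessel walls. Fibroblasts are the main source of fibrillar collagen in the heart, and endothelial cells are rich in type IV.

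Deposited counts per library summed to between 73821747 and 88117573. Since 1 read pair gave about 4 counts, this was about 18455437 to 22029393 pairs. The share of mitochondrially encoded genes was 43.1% to 46.4% in sham and 19.9% to 24.2% in MI libraries. The groups are named as labelled, although the label checks did not all match. Piezo1 was not lower in CKO-MI than in fl/fl-MI (log2 fold change 0.03, standard error 0.16, edgeR adjusted p = 0.972). Esr1, whose hormone-binding stretch is carried by MerCreMer, was between 5.52 and 8.36 CPM (counts scaled to library size) in fl/fl-MI 1 and in every sham library. It was at 331 CPM in fl/fl-MI 2, beside 707 and 402 CPM in CKO-MI. So the library with the label fl/fl-MI 2 went against that label in this transcript, and both libraries with the label CKO-Sham were as low as the fl/fl-Sham libraries. The library fl/fl-MI 2 also stood apart in its atrial markers (Myl7, Sln, Bmp10, Myl4 and Nppa), which summed to 19857 CPM there and to 2547 to 4450 CPM in the other MI libraries. Nppa made up most of the sums in those other libraries. Bmp10 was at 3834 CPM in fl/fl-MI 2 and at 10.3 to 12.6 CPM in the other MI libraries, and Myl7 at 1157 against 3.90 to 5.00 CPM. The edgeR counts of chains called after MI, and their fold changes averaged over genotypes, are therefore given with and without fl/fl-MI 2. For Col14a1 the range over each library left out is given instead.

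The genomic stretches before the RefSeq start sites of Col3a1, Col1a2 and Col8a2 are printed because these were the most abundant fibrillar chains of MI libraries and the chain with the largest rise. They are RefSeq sequences on GRCm38.p6, plus strand, 5′ to 3′, and bases inside annotated exons were left out. Capitals mark, on either strand, TATAAA (the TATA box), GGGCGG (the GC box) or GGAATG (the motif of TEAD factors), and CCAAT (the CCAAT box) was also searched.
Col3a1, chr1:45311288-45311537: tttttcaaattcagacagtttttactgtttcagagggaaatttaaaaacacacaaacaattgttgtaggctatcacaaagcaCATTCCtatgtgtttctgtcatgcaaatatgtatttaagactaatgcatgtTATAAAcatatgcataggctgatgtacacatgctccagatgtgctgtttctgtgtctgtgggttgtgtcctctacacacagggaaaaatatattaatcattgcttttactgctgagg
Col1a2, chr6:4505370-4505492: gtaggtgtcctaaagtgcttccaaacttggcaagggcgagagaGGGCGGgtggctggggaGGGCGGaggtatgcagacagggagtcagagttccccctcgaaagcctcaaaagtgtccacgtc
Col8a2, chr4:126286544-126286792: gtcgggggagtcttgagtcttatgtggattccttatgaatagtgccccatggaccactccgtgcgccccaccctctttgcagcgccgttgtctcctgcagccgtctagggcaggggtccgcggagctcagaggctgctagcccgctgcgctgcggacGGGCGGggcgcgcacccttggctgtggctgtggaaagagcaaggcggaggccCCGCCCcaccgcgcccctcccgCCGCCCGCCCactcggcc

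The stretch before Col3a1 held a TATA box, read 117 bases before the RefSeq start, and 1 TEAD motif on the opposite strand, and no GC box. The stretch before Col8a2 held 4 GC boxes, 2 of them overlapping, and that before Col1a2 held 2. The Col1a2 stretch was only 123 bases long and ended 126 bases before the RefSeq start. In the deposited gene table Col1a2 starts earlier, at 4504814, so this stretch lies inside the span of the counted gene. In the full RefSeq windows of 300 bases, which 35 of the 44 chains had, 22 chains held a GC box, against 35.7% of all 32851 windows. The TATA box was in 5 of the 35 chains (13.6% of all windows), the CCAAT box in 13 (37.4%) and the TEAD motif in 5 (14.7%). Col1a2 was among the 13, with its CCAAT box outside the printed stretch. These matches are a description of the letters in the windows and are not binding sites.

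After MI, 17 of the 29 tested chains rose and none fell, averaged over genotypes (edgeR quasi-likelihood test on the counts, Benjamini-Hochberg adjusted p under 0.05 over all genes tested). Of all genes tested, 22.0% were called higher and 18.3% lower in this comparison. DESeq2 on the same libraries called 17 chains higher and 2 lower, when 3441 and 3045 of the 14028 genes were. The median log2 fold change of the tested chains was 1.003, and that of all genes tested was 0.03. The rises were in the fibrillar (5 of 7 tested), FACIT (3 of 4), short chain (2 of 2), beaded filament (4 of 5) and basement membrane (3 of 8) classes, and no cartilage, transmembrane or other chain was called. For 8 of the 29 chains all 4 MI libraries lay above all 4 sham libraries, against 20.9% of all genes tested. In this bulk tissue, more cells of a type and more RNA per cell cannot be told apart.

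Without fl/fl-MI 2, 20 chains were called higher and 2 lower, when 26.9% and 23.8% of all genes were. The count was sensitive to single libraries. Without CKO-MI 2, 9 chains were called higher (15.9% of all genes) and 1 lower (14.3%). Without CKO-Sham 2, 11 were called higher, against 14.3% of genes. Without fl/fl-Sham 1 it was 6 (13.2% of genes), without CKO-Sham 1 it was 5 (12.4%) and without fl/fl-Sham 2 also 5 (12.1%). Each of the 17 chains kept its direction when any of the 8 libraries was left out, and Col1a2, Col3a1, Col14a1, Col15a1 and Col6a5 were called in all 8 of those fits. The chains called in the fewest, 2 of the 8 fits, were Col16a1, Col4a5 and Col6a3.

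**Figure D1:**
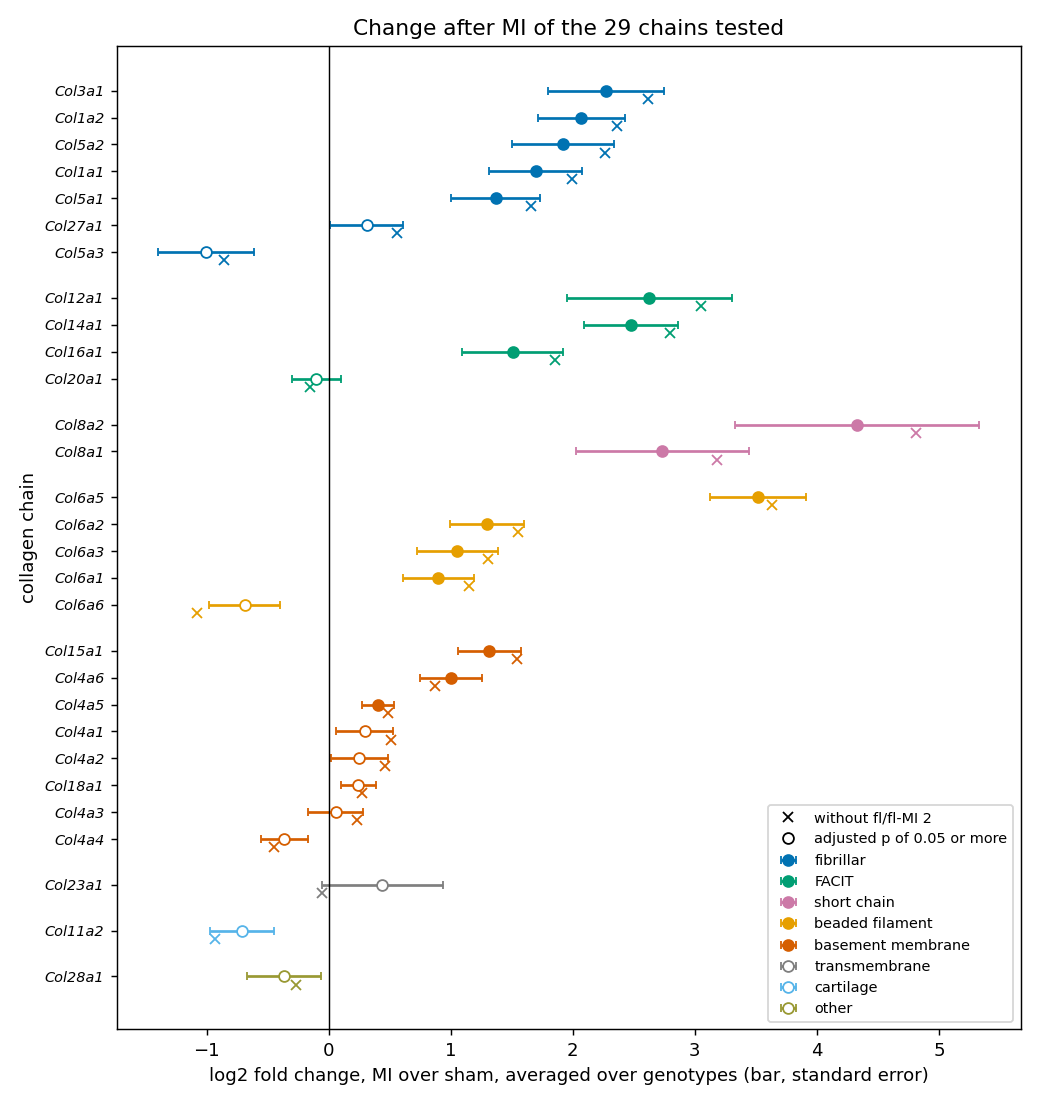
Each point is the log2 fold change after MI of 1 of the 29 tested chains, averaged over genotypes, with its standard error, coloured by class, and filled where the adjusted p was under 0.05. Crosses leave out fl/fl-MI 2, and they lie to the right of the filled points for all chains but Col4a6, and Col8a2, at 4.33, is the highest point.

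In fibrillar collagen, Col3a1 (chromosome 1, 45311538 to 45349706, plus strand), the single chain of type III, had 199 and 222 CPM in fl/fl-Sham, 268 and 288 in CKO-Sham, 1802 and 430 in fl/fl-MI and 738 and 1712 in CKO-MI. All MI libraries lay above all sham libraries, and fl/fl-MI 2 was the lowest of the MI libraries. Its log2 fold change was 2.27 (standard error 0.47, edgeR adjusted p = 0.00954), and 2.62 without fl/fl-MI 2.

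Col1a1 (chromosome 11, 94936224 to 94953042, plus strand), the more frequent chain of type I, had 137 and 135 CPM in fl/fl-Sham, 157 and 201 in CKO-Sham, 682 and 222 in fl/fl-MI and 377 and 754 in CKO-MI. The groups did not overlap, but the lowest MI library was close to the highest sham library. The log2 fold change was 1.70 (standard error 0.38, edgeR adjusted p = 0.0124), and 1.99 without fl/fl-MI 2. Col1a2, its partner in the type I helix, rose by 2.07 (standard error 0.35, edgeR adjusted p = 0.00484, 2.37 without fl/fl-MI 2), from between 139 and 176 CPM in sham libraries to 948, 312, 493 and 784 CPM in the MI libraries.

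The type V chains differed. Col5a2, which ends 24614 bases from the end of Col3a1, rose by 1.92 on the log2 scale (standard error 0.42, edgeR adjusted p = 0.0114) and Col5a1 by 1.37 (standard error 0.36, adjusted p = 0.0233). They were 2.26 and 1.66 without fl/fl-MI 2. Col5a3, the third type V chain, had 59.4 to 82.4 CPM in sham libraries and 30.7, 19.6, 19.3 and 76.1 CPM in fl/fl-MI 1, fl/fl-MI 2, CKO-MI 1 and CKO-MI 2. The last of these overlapped the sham libraries, and the log2 fold change of -1.003 was not called (standard error 0.39, edgeR adjusted p = 0.0807). Col27a1 was at 12.8 to 17.4 CPM in sham and 8.88 to 27.8 CPM in MI libraries (0.31, adjusted p = 0.434 in edgeR, and 0.56, adjusted p = 0.0441, without fl/fl-MI 2), and Col24a1 was below the filter in the tests.

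**Figure D2:**
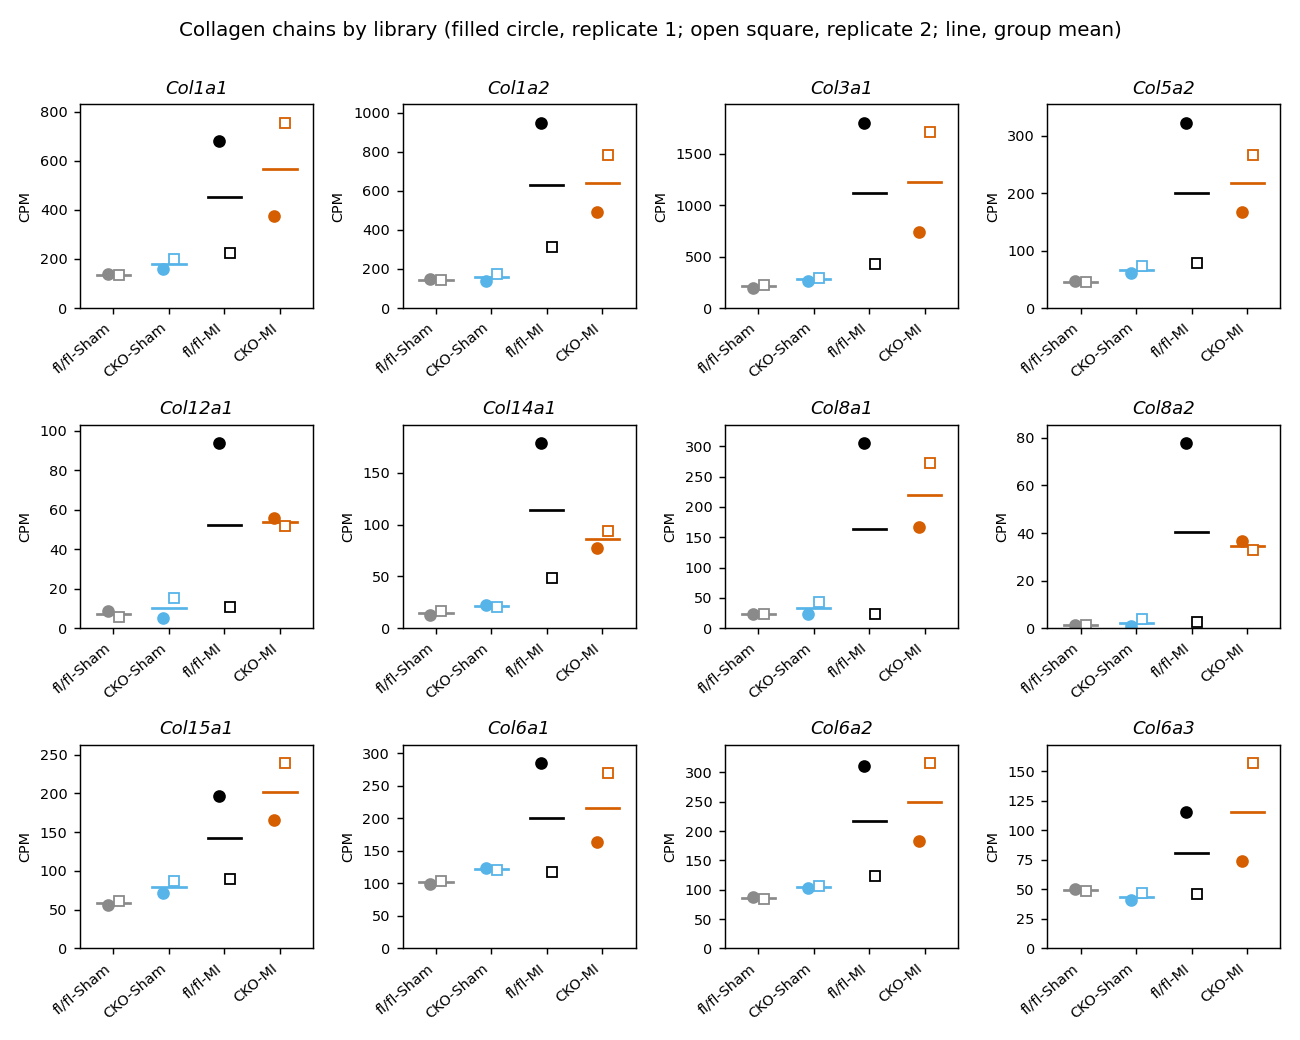
CPM (counts scaled to library size by TMM) of 12 chains in each library, by group, with circles for replicate 1, squares for replicate 2 and a line at the mean of the 2 libraries. In most panels fl/fl-MI 1 and the CKO-MI libraries are high, and the square of fl/fl-MI lies near the sham libraries, at 23.6 CPM for Col8a1 and 2.84 CPM for Col8a2.

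Of the FACIT chains, Col12a1, which links fibrils to their surroundings in tissues under tension, had 5.04 to 15.4 CPM in sham libraries and 93.8, 10.6, 56.1 and 52.0 CPM in fl/fl-MI 1, fl/fl-MI 2, CKO-MI 1 and CKO-MI 2. The library fl/fl-MI 2 lay within the sham range. The log2 fold change was 2.63 (standard error 0.67, edgeR adjusted p = 0.0204), and 3.05 without it. Col14a1 (chromosome 15, 55307750 to 55520803, plus strand), which binds type I fibrils, had 12.7 to 22.2 CPM in sham and 179, 48.9, 77.8 and 93.7 CPM in MI libraries, with no overlap. Its rise of 2.47 (standard error 0.38, edgeR adjusted p = 0.00342) was called whichever library was left out, at 1.85 to 2.80.

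Col16a1 rose by 1.51 (standard error 0.41, edgeR adjusted p = 0.0258), from 17.2 to 28.9 CPM in sham libraries to 102, 23.9, 59.5 and 66.7 CPM in MI libraries. The value of fl/fl-MI 2 was again inside the sham range, and the fold change was 1.86 without it. Col20a1 stayed between 3.42 and 4.93 CPM in all 8 libraries (log2 fold change -0.10). Col22a1, a chain of tissue junctions such as that of muscle and tendon, was below the filter at 0.25 to 0.99 CPM in sham libraries and 7.06, 0.36, 4.86 and 2.73 CPM in MI libraries. With no filter on low values its log2 fold change was 3.11 (standard error 0.72, edgeR adjusted p = 0.00937), when 10.3% of 33249 genes were called higher. Col19a1 had at most 0.46 CPM in any library.

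The short chain collagens had the largest rise of any class, with a median log2 fold change of 3.53 over its 2 chains. Of these, Col8a2 passed the filter through its MI libraries. Col8a2 (chromosome 4, 126286793 to 126314330, plus strand) had 1.57, 1.46, 0.79 and 3.82 CPM in the sham libraries and 77.8, 2.84, 36.7 and 32.7 CPM in fl/fl-MI 1, fl/fl-MI 2, CKO-MI 1 and CKO-MI 2. The rise was present in 3 of 4 MI libraries, since fl/fl-MI 2 lay below CKO-Sham 2. The log2 fold change was 4.33 (standard error 1.001, edgeR adjusted p = 0.0140), 4.81 without fl/fl-MI 2 and 2.40 without fl/fl-MI 1. Col8a1, its partner in type VIII, had 23.9 to 44.0 CPM in sham and 305, 23.6, 167 and 272 CPM in MI libraries (2.73, standard error 0.71, adjusted p = 0.0211 in edgeR), which became 3.18 without fl/fl-MI 2 and 1.31 without fl/fl-MI 1.

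The beaded filament class held a trio that rose, namely Col6a1, Col6a2 and Col6a3, the chains of the classical type VI molecule. Col6a1 had 99.3 to 124 CPM in sham and 284, 117, 163 and 269 CPM in MI libraries (0.90, edgeR adjusted p = 0.0441). Col6a2, 85161 bases from Col6a1 on the same strand of chromosome 10, rose by 1.29 (adjusted p = 0.0149 in edgeR) with no overlap, and Col6a3 by 1.05 (adjusted p = 0.0411). Col6a3 in fl/fl-MI 2, at 46.4 CPM, was within its sham range of 41.3 to 50.7 CPM. Without that library the log2 fold changes were 1.15 for Col6a1, 1.55 for Col6a2 and 1.31 for Col6a3.

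Col6a5 and Col6a6 are alternative type VI chains, whose genes lie near each other on chromosome 9, and of these Col6a5 was called higher and Col6a6 was not called. Col6a5 had 0.94, 0.70, 0.69 and 0.39 CPM in sham and 15.1, 10.7, 2.50 and 6.63 CPM in fl/fl-MI 1, fl/fl-MI 2, CKO-MI 1 and CKO-MI 2. It passed the filter only through its MI libraries. It rose by 3.52 (standard error 0.39, edgeR adjusted p = 0.00115) and, unlike the fibrillar chains, was high in fl/fl-MI 2, without which its rise was 3.63. Col6a6 had 6.22 to 8.85 CPM in sham and 5.75, 14.1, 2.32 and 2.73 CPM in MI libraries, and its change of -0.69 was not called (edgeR adjusted p = 0.0997). Without fl/fl-MI 2 it was called lower, at -1.08 (standard error 0.19, edgeR adjusted p = 0.00302). Col6a4 had at most 0.36 CPM.

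In basement membrane collagen, Col4a1 and Col4a2 form the main type IV molecule and were the most abundant chains of the sham heart per length. Col4a1 had 681, 658, 502 and 627 CPM in sham libraries and 799, 394, 846 and 1066 CPM in MI libraries. The MI libraries lay on both sides of the sham libraries, and the change of 0.30 was not called (standard error 0.24, edgeR adjusted p = 0.341). Col4a2 had 375 to 467 CPM in sham and 534, 262, 579 and 721 CPM in MI libraries (0.25, edgeR adjusted p = 0.418). Both were called without fl/fl-MI 2 (0.51 and 0.46, edgeR adjusted p = 0.0196 and 0.0241), and turned to -0.02 and -0.07 without fl/fl-MI 1.

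Col15a1, a collagen at the outer face of the basement membranes of muscle and capillaries, was the clearest riser of its class. It had 56.5 to 87.3 CPM in sham and 196, 89.8, 166 and 239 CPM in MI libraries, with no overlap. The log2 fold change was 1.32 (standard error 0.26, edgeR adjusted p = 0.00783), and 1.54 without fl/fl-MI 2. Col18a1, the related chain whose end fragment is endostatin, was at 17.7 to 25.0 CPM in sham and 19.3 to 33.2 CPM in MI libraries and was not called (0.24, edgeR adjusted p = 0.209).

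The remaining type IV genes lie head to head in pairs. Col4a5 rose by 0.40 (edgeR adjusted p = 0.0419) and Col4a6 by 1.003 (adjusted p = 0.0202), and their genes start 1308 bases apart on chromosome X. These averages were 0.48 and 0.87 without fl/fl-MI 2. Within the genotypes the rise was called in the fl/fl hearts (0.77 and 2.07, edgeR adjusted p = 0.0314 and 0.0138), and the values in CKO-MI against CKO-Sham were 0.04 and -0.067 (adjusted p = 0.882 and 0.908). For Col4a6 these were 2.74 and 5.43 CPM in CKO-Sham and 3.59 and 4.19 CPM in CKO-MI. The difference between the genotypes in this response was not called in edgeR, as given with the interaction. Col4a3 and Col4a4, 71 bases apart on chromosome 1, were not called (0.06 and -0.36 in edgeR). Col4a1 and Col4a2 overlap by 22 bases at their starts on chromosome 8. Counting by strand is not given in the sources used here, so reads inside that overlap cannot be assigned. Col7a1, the anchoring fibril chain of epithelia, was below the filter, with 203 to 415 deposited counts per library.

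The cartilage class was nearly silent. Type II collagen (Col2a1) forms the fibrils of cartilage, type XI joins them, type IX covers them, and type X (Col10a1) marks hypertrophic chondrocytes. Col11a2 alone passed the filter, with 5.66, 4.62, 5.15 and 8.83 CPM in sham and 3.06, 5.25, 3.45 and 3.03 CPM in MI libraries. It was not called (-0.71, standard error 0.27, edgeR adjusted p = 0.0672), and was called lower without fl/fl-MI 2 (-0.93, edgeR adjusted p = 0.0170).

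Col11a1 had 2, 24, 23 and 61 deposited counts in the sham libraries and 1198, 8, 245 and 99 in fl/fl-MI 1, fl/fl-MI 2, CKO-MI 1 and CKO-MI 2. The highest value was in fl/fl-MI 1, and fl/fl-MI 2 was below all sham libraries but 1. With no filter its log2 fold change was 3.25 (standard error 1.004, edgeR adjusted p = 0.0416). Col2a1 had 48 to 94 counts in sham and 358, 47, 126 and 122 in MI libraries, and Col9a2 had 23 to 64 and then 399, 19, 75 and 87. Both were highest in fl/fl-MI 1 and lowest in fl/fl-MI 2, and neither was called with no filter (edgeR adjusted p = 0.309 and 0.203).

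Col9a3 had 22 to 99 counts in any library. Col9a1 had 0 counts in all sham libraries and 4, 12, 6 and 8 in MI libraries, and Col10a1 had 10 counts in CKO-MI 1 and 0 elsewhere. At about 4 counts per pair these are about 1 to 3 read pairs. A count of 0 allows up to 12 counts, or 0.11 to 0.20 CPM depending on the library, so no fold is given.

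The cartilage chains were set beside other cartilage genes. The summed level of 8 cartilage markers (Acan, Comp, Cnmd, Hapln1, Matn1, Matn3, Ucma and Sox9) was 14.7 to 37.5 CPM in sham and 68.8 to 868 CPM in MI libraries. Comp, which fibroblasts also make, supplied most of it. In the fit of all 8 libraries it was the only member of the 3 tested to be called (4.99, edgeR adjusted p = 0.00443). Sox9 was at 1.12 (edgeR adjusted p = 0.156) and Cnmd at -0.58 (adjusted p = 0.330). Without fl/fl-MI 2 the log2 fold changes were 5.44 for Comp, 1.51 for Sox9 and -0.72 for Cnmd. Acan, the cartilage proteoglycan, had at most 4.02 CPM, in fl/fl-MI 1, and Matn1, Matn3 and Ucma were at 0 in at least 4 libraries.

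The transmembrane and other collagens were low. Col23a1 had 1.72 to 5.98 CPM in sham and 3.92, 11.6, 2.88 and 4.69 CPM in MI libraries (0.44, not called in edgeR). Its highest value was in fl/fl-MI 2, and its change was -0.06 without it. Col13a1, which lies at neuromuscular and adhesive sites, had 69 to 150 counts in sham and 189, 319, 81 and 133 in MI libraries. Col25a1 was also highest in fl/fl-MI 2, with 241 counts there and 19 to 50 in the other MI libraries, and Col17a1 had at most 28 counts. Col28a1 was at 1.64 to 3.86 CPM throughout (-0.36, not called in edgeR), and Col26a1 had 0 to 31 counts.

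Levels were compared between chains on FPKM summed over the transcripts of each gene, since this scale is per length. It is not used here to compare a chain between sham and MI libraries. On log2(FPKM + 1) the median change of all genes tested after MI was 0.41, against 0.03 in edgeR. In the sham libraries the most abundant chain was Col4a1 (mean FPKM 74.3, range 60.9 to 82.0), followed by Col4a2 (52.8, range 46.7 to 56.9) and Col3a1 (35.0, range 27.6 to 40.6). The ranges of these did not overlap with each other. In the MI libraries the order was Col3a1 (258, range 84.0 to 415), Col1a2 (147, range 64.7 to 230), Col4a1 (141, range 66.2 to 206) and Col1a1 (104, range 40.7 to 161). The ranges overlapped between libraries. Within the libraries, Col3a1 was above Col1a2 in 4 of 4 MI libraries and Col4a1 above Col1a1 in 4 of 4, while Col1a2 was above Col4a1 in 1 of 4, so the order of that pair was not fixed.

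Fibrillar chains made up 30.3% to 35.2% of the summed collagen FPKM in sham libraries and 55.3%, 46.3%, 43.5% and 53.1% in fl/fl-MI 1, fl/fl-MI 2, CKO-MI 1 and CKO-MI 2. Basement membrane chains made up 43.3% to 51.6% in sham and 20.8%, 32.1%, 34.4% and 26.4% in MI libraries. The shift toward fibrillar chains was thus present in all MI libraries, fl/fl-MI 2 included. Short chain collagens went from 1.3% to 2.1% in sham to 4.8% to 6.1% in MI libraries apart from fl/fl-MI 2, which stayed at 1.2%. Beaded filament chains held 11.9% to 15.9% in every library.

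**Figure D3:**
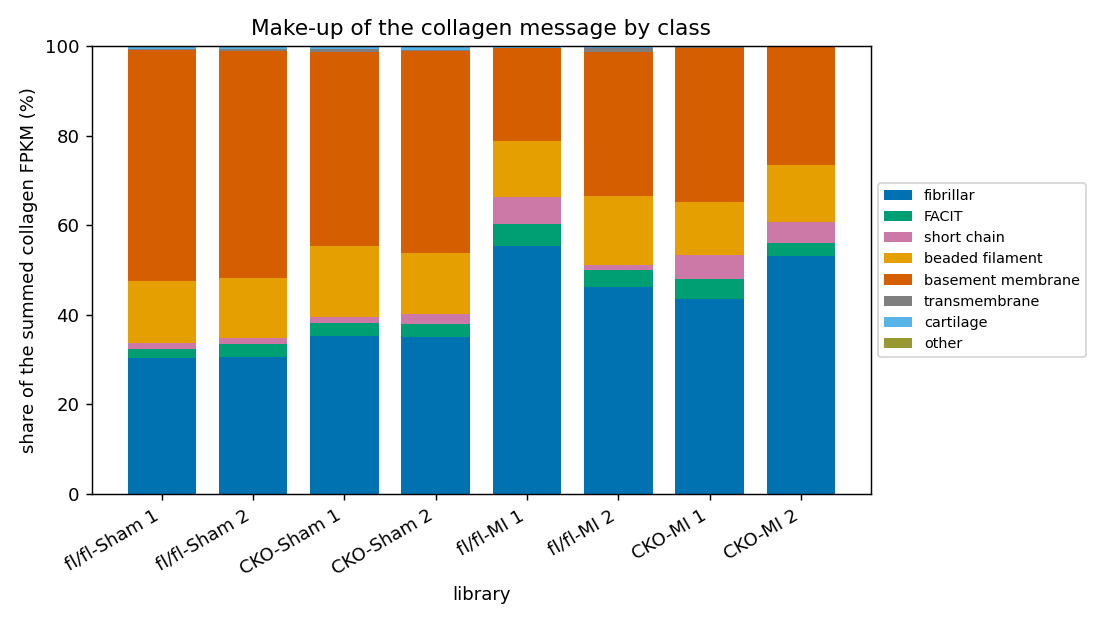
Stacked bars give the share (%) of the summed transcript FPKM of all 44 chains that each class took in each of the 8 libraries. Basement membrane chains took 43.3% to 51.6% in sham libraries and 20.8% to 34.4% in MI libraries, where fibrillar chains took 43.5% to 55.3%.

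All 44 chains together took 0.333%, 0.343%, 0.334% and 0.402% of the counts that were not mitochondrial in the sham libraries. In the MI libraries they took 1.19% in fl/fl-MI 1, 0.360% in fl/fl-MI 2, 0.663% in CKO-MI 1 and 1.20% in CKO-MI 2. The 95% Wilson intervals were at most 0.00556 percentage points to either side, and cover counting error only. On this scale the value of fl/fl-MI 2 lay within the sham range, and the spread among MI libraries was far wider than counting error. Of all counts, mitochondrial ones included, its share was 0.278%, above the 0.179% to 0.215% of the sham libraries.

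Ratios of chains within a library do not depend on the scaling of libraries. The log2 ratio of Col1a1 to Col3a1 (gene FPKM) was -0.06 ± 0.13 in sham and -0.55 ± 0.21 in MI libraries (SD, n = 4 each, exact two-sided permutation p = 0.0286, the smallest that 4 against 4 can give). All MI libraries were below all sham libraries, and the adjusted p over the 3 ratios tested was 0.0857. The log2 Col1a1 to Col1a2 ratio was 0.97 ± 0.16 in sham and 0.57 ± 0.20 in MI libraries (SD, n = 4 each, exact permutation p = 0.0857, adjusted 0.129). The log2 Col4a1 to Col4a2 ratio was 0.35 ± 0.12 in sham and 0.40 ± 0.02 in MI libraries (SD, n = 4 each, exact permutation p = 0.371, adjusted 0.371). The 3 differences were -0.55, -0.35 and 0.040 without fl/fl-MI 2. The gene FPKM and the transcript-summed FPKM disagree on which type I chain is the more abundant. On the transcript scale, used for the order of levels, the linear Col1a1 to Col1a2 ratio was below 1 in every library, at 0.824 to 0.985 in sham and 0.630 to 0.852 in MI libraries. The log2 values are therefore read here for their change between groups and not for which chain is higher.

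The genes that fold, secrete, process and crosslink collagen and its receptors were counted by the same rule. Of 18 genes for chain modification and folding, 10 rose and 1 fell after MI, of 8 secretion genes 6 rose, of 5 crosslinking genes 4 rose, of 6 tested propeptide removal genes 3 rose, and of 9 tested receptors 4 rose and 1 fell (edgeR, background 22.0% and 18.3%). With fl/fl-MI 2 left out, the folding genes gave 13 higher and 1 lower, secretion 6 higher, crosslinking 5 higher, propeptide removal 3 higher and 2 lower, and receptors 6 higher and 1 lower (background 26.9% and 23.8%). P4ha3, a subunit of the proline hydroxylase, was low but rose by 2.66 (edgeR adjusted p = 0.00744), from 0.38 to 0.79 CPM in sham to 3.78, 1.19, 2.52 and 7.52 CPM in MI libraries. Lox, which starts the crosslinks, had 20.0 to 26.2 CPM in sham and 209, 31.8, 97.5 and 215 CPM in MI libraries (2.58, edgeR adjusted p = 0.0116). Both rises were called without fl/fl-MI 2 as well (2.96 and 2.98).

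Among the genes that fell were Colgalt2, which adds galactose to hydroxylysine, and Itga1, part of an integrin that binds type IV collagen. Colgalt2 fell by 1.43 (edgeR adjusted p = 0.00244) and Itga1 by 1.10 (adjusted p = 0.00174). In both genes each MI library lay below each sham library, and fl/fl-MI 2 was the lowest, at 5.72 CPM for Colgalt2 and 38.6 CPM for Itga1. Without it the log2 fold changes were -1.24 and -0.97, both called.

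Markers of cell types went both ways after MI. Activated fibroblast markers (Postn, Cthrc1, Meox1, Acta2 and Fap) summed to 140 to 196 CPM in sham and to 1031, 309, 647 and 903 CPM in fl/fl-MI 1, fl/fl-MI 2, CKO-MI 1 and CKO-MI 2, and 3 of the 5 rose, while Acta2 and Fap were not called. The 6 fibroblast markers summed to 1068 to 1098 CPM in sham and 1440 to 2797 CPM in MI libraries, and 4 of them rose. All 5 endothelial markers fell, from 1343 to 1437 CPM in sum to 429 to 672 CPM, and 2 of 4 smooth muscle and pericyte markers fell. Without fl/fl-MI 2, 3 activated fibroblast and 6 fibroblast markers rose, 5 endothelial markers fell, and 1 smooth muscle and pericyte marker rose and 1 fell. The part of these changes in the collagen levels was not tested.

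In fl/fl-MI 2 the low chains came with a low fibroblast activation sum. Cardiomyocyte markers (Myh6, Tnnt2, Tnni3, Actc1, Ryr2 and Pln) summed to 33887 CPM there, against 15617 to 28798 CPM in the other MI libraries. Myh6 supplied most of this, at 18609 CPM. Actc1 and Pln were not highest there, at 6112 and 1956 CPM against 8197 and 2627 CPM in CKO-MI 1. The library fl/fl-MI 2 had the lowest value of the 4 MI libraries for 17 of the 29 tested chains, against 34.5% of all genes. Its highest values among the MI libraries were in Col11a2, Col23a1, Col4a4, Col4a6 and Col6a6. Epicardial markers also differed, at 160 CPM there and 33.4 to 76.9 CPM in the other MI libraries. Macrophage markers summed to 122 to 146 CPM in sham and 110 to 249 CPM in MI libraries.

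Within the genotypes, 7 chains rose in fl/fl-MI against fl/fl-Sham (10.1% of genes called higher), namely Col6a5, Col4a6, Col14a1, Col1a2, Col4a5, Col3a1 and Col5a2. Without fl/fl-MI 2 the count was 17 (15.8% of genes). It was 0 without fl/fl-Sham 1 or fl/fl-Sham 2, when 0.128% and 0.121% of all genes were called higher. In CKO-MI against CKO-Sham 4 chains rose (12.8%), namely Col6a5, Col1a2, Col14a1 and Col15a1, and Col6a6 fell by 1.78 (standard error 0.42, edgeR adjusted p = 0.0256, 11.9% of genes called lower). That count of 5 was 19 without fl/fl-MI 1 (41.0% of genes in either direction) and 19 without fl/fl-MI 2 (41.3%), in a fit where all groups share 1 estimate of the spread. It was 0 without CKO-Sham 1 (0.178%) and 0 without CKO-Sham 2 (5.09%). Col6a5, Col1a2 and Col14a1 were called in both comparisons. These share no library but come from 1 fit with 1 estimate of the spread, so their calls are not independent. The share of all genes called in both is not given here.

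The study asked what loss of Piezo1 in cardiomyocytes changes after MI. Between CKO-MI and fl/fl-MI no chain (0 of 29) passed an adjusted p under 0.05 in edgeR, as did no gene (0% of 14028). At an unadjusted p under 0.05 there were 4 chains, against 8.31% of all genes, and DESeq2 called 2, Col6a6 and Col4a6, both lower in CKO-MI (0.998% of genes called lower). By another limit, a 2-fold difference at an unadjusted p under 0.05, 3 chains (Col6a6, Col4a6 and Col6a5) were lower in CKO-MI, as were 2.72% of all genes. The median log2 difference of the 29 chains was 0.05, and it was 1.05 without fl/fl-MI 1 and -0.31 without fl/fl-MI 2. Over the 7 tested fibrillar chains the median was 0.32, and in Col1a1, Col1a2, Col3a1 and Col5a2 the CKO-MI libraries lay between or overlapped the fl/fl-MI libraries, of which fl/fl-MI 2 was the lowest of all.

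In 6 of the 29 chains the CKO-MI and fl/fl-MI libraries did not overlap. Col6a6 was lower in CKO-MI by 1.97 on the log2 scale (2.32 and 2.73 CPM against 5.75 and 14.1, standard error 0.42, edgeR adjusted p = 0.456). Col4a6 was lower by 1.54 (3.59 and 4.19 CPM against 9.43 and 13.2, standard error 0.36, edgeR adjusted p = 0.489). Col6a5 and Col18a1 were also below in both libraries, which 4 of 29 chains and 15.5% of all genes were, and Col4a1 and Col4a2 were above, as were 14.5% of all genes.

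The genotype difference depended on which fl/fl-MI library was kept. Without fl/fl-MI 2 no chain was called (0.192% of genes in either direction). Without fl/fl-MI 1, so with fl/fl-MI 2 alone as the control, 10 chains were called higher in CKO-MI and 2 lower, when 5.90% and 6.04% of all genes were. Those higher included Col8a2 (3.63, edgeR adjusted p = 0.0317), Col8a1 (3.23, adjusted p = 0.00669), Col4a1 (1.29) and Col4a2 (1.32), and those lower were Col6a6 (-2.46) and Col4a6 (-1.74). The lone library is assumed there to vary as the other groups do.

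**Figure D4:**
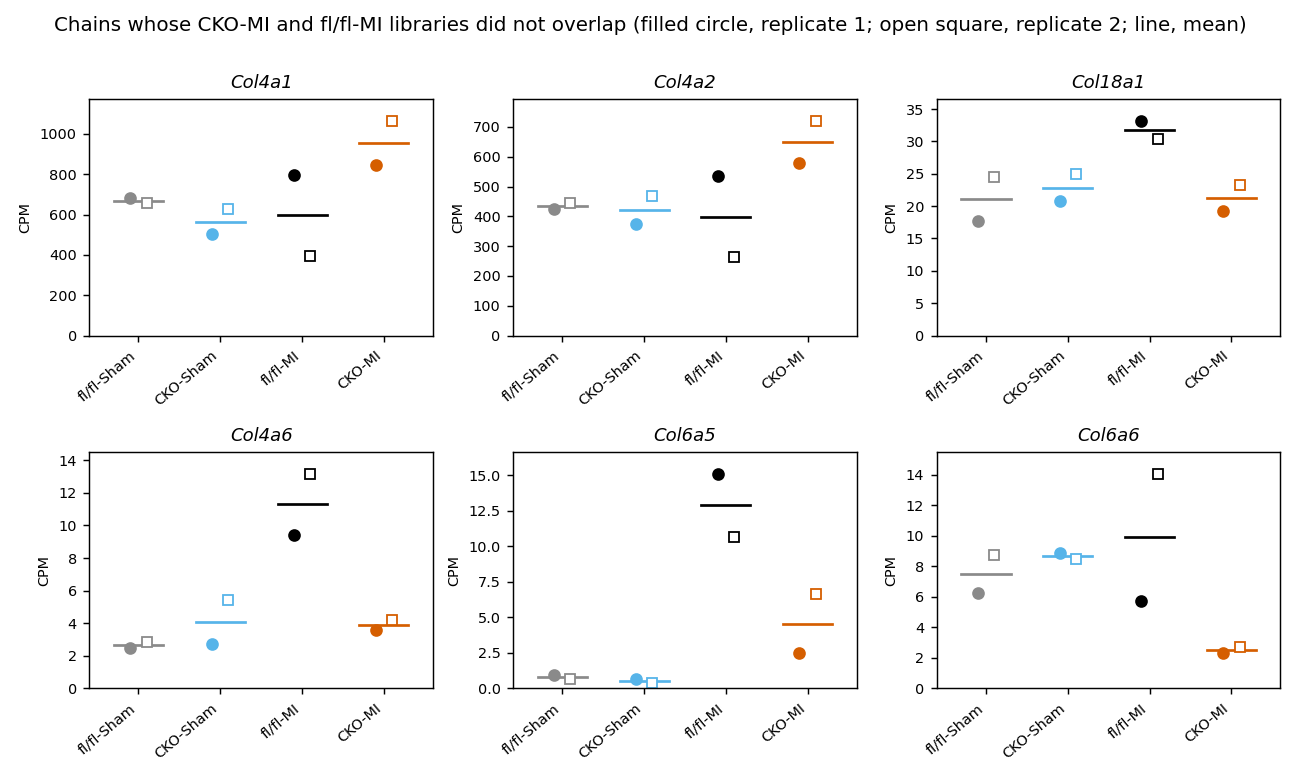
CPM of the 6 chains whose 2 CKO-MI libraries lay both above or both below the 2 fl/fl-MI libraries, by group, with circles for replicate 1, squares for replicate 2 and a line at the mean. Col4a1 and Col4a2 are above in CKO-MI and the other 4 chains are below, and for none was the adjusted p under 0.05 in edgeR.

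No chain was called for the interaction of genotype and MI (0% of genes, 4 chains at an unadjusted p under 0.05 against 8.49% of genes), and DESeq2 called Col4a6 and Col6a6 (0.934% of genes). Without fl/fl-MI 1 the interaction called 5 chains (5.35% of genes), and without fl/fl-MI 2 it called 0 (0.0356%). Between CKO-Sham and fl/fl-Sham no chain was called in edgeR or DESeq2 (0.00713% of genes called in edgeR). In that edgeR fit of all 8 libraries, Col4a5 was the single chain at an unadjusted p under 0.05, against 3.89% of genes (0.58, standard error 0.18, edgeR adjusted p = 0.9997). With only the 4 sham libraries fitted, 10 chains were at an unadjusted edgeR p under 0.05, as were 2177 of 14028 genes. None of the chains was called there, and 165 genes were. For 15 of the 29 chains both CKO-Sham libraries lay above both fl/fl-Sham libraries, against 23.2% of all genes. For 3 chains (Col4a1, Col6a3 and Col6a5) both lay below, against 23.8% of all genes. The median difference of the chains was 0.33, and 0.07 without CKO-Sham 2.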

How the data were processed

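RNA sequencing of 8 mouse myocardium libraries was analysed as grouped by their deposited labels. Per the paper's methods and the submitters' notes, poly(A) libraries were made by a dUTP method, sequenced as paired ends and trimmed with cutadapt 1.9. The aligner, counter and build are not given in the sources used here; identifiers and coordinates were compared with GENCODE M21 on GRCm38. For each gene and transcript the authors deposited whole-number counts, not normalized and about 4 per read pair, and FPKM, normalized to length and library size. Statistics of the authors' own comparisons were not used.

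Genes that reached 0.5 in mean FPKM were fitted with edgeR 4.0.16 (R 4.3.3; quasi-likelihood, TMM, a mean per group over all 8 libraries), with Benjamini-Hochberg adjustment over all 14028 genes and a threshold of 0.05. CPM were scaled by TMM, and standard errors were taken from the fold change and the F statistic. Fits were tested on simulated data. Levels between chains used FPKM summed over transcripts, chosen after seeing that the gene FPKM of chains with retained-intron transcripts was lower. Ratios were tested with exact permutation tests. Alternatives were DESeq2 1.42.0, limma 3.58.1 on log2(FPKM + 1) and log2(FPKM + 0.1), other filters and scaling, counts divided by 4, a limit of 2-fold at an unadjusted p under 0.05, a replicate block and each library left out. Same-numbered libraries did not deviate together (correlations from -0.20 to 0.05), so numbers were not taken to pair them. The chains, classes, gene lists and tests were chosen with earlier results of these data known. Named genes were, by class, the 2 chains with the highest mean FPKM and the called chains with the largest change after MI, all cartilage chains and neighbouring pairs, chains called between genotypes or with the 2 smallest p there, Piezo1, Esr1 and the 2 pathway genes with the largest called rise and fall; other chains are given so that all 44 are accounted for. Protein sequences were not used here.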

Additional observations from a re-analysis of the deposited data

Results flagged for a closer look

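Col24a1, a fibrillar chain below the filter on low values, had a higher CPM in both fl/fl-MI libraries (mean 0.488) than in both fl/fl-Sham libraries, and a lower one in both CKO-MI than in both CKO-Sham libraries. These levels rest on 6 to 65 deposited counts per library. With no filter, the interaction of genotype and MI had a log2 value of -3.10 (standard error 1.34, edgeR adjusted p = 0.795) and was not called.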

How the results depend on the processing

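The number of chains called after MI averaged over genotypes (17) was 19 with DESeq2, 20 with limma under either pseudocount and 19 with no filter. It was 16 at an unadjusted p under 0.05 with 2-fold. The number was 11 at a mean FPKM of at least 5, which left 17 chains, and 5 to 22 when each library was left out. For fl/fl-MI against fl/fl-Sham (7), it was 15 with DESeq2, 11 with limma under either pseudocount, 4 at a mean FPKM of at least 5, 14 with no filter, 1 with only the 4 libraries compared, 3 with the replicate block, 14 at an unadjusted p under 0.05 with 2-fold, and 0 to 17 leaving out each library. For CKO-MI against CKO-Sham (5), these were 14, 15 (pseudocount 0.1) or 10 (pseudocount 1), 3, 13, 17, 2, 15 and 0 to 19. For CKO-MI against fl/fl-MI (0), DESeq2 gave 2, the 2-fold rule 3 and leaving out each library 0 to 12. For the interaction (0), these gave 2, 2 and 0 to 5. The cause of these differences was not tested. The replicate block gave 13 chains after MI and 0 in the genotype comparisons and the interaction, and the crossed numbers, added after seeing the data, also gave 0 between CKO-MI and fl/fl-MI, as did the fit without the mitochondrially encoded genes. On log2(FPKM + 1) the median of all genes moved from 0.03 to 0.41, and 50.1% of genes were called higher and 5.97% lower. Against it, Col20a1 (0.20, or 0.42 at a pseudocount of 0.1), Col28a1 (0.067 and 0.14), Col4a4 (0.10 and 0.16) and Col6a6 (0.0050) turned positive on these scales. Leaving out each library in turn gave ranges across 0 for Col20a1 (-0.22 to 0.044), Col23a1 (-0.056 to 0.96), Col27a1 (-0.094 to 0.56), Col4a1 (-0.020 to 0.51), Col4a2 (-0.069 to 0.46) and Col4a3 (-0.20 to 0.24). The difference in log2 Col1a1 to Col3a1 ratio (-0.49) was -0.55 to -0.40 leaving out each library, where 4 against 3 cannot go below an exact p of 0.0571. The filter on FPKM, and not their counts, kept Col22a1 and Col11a1 out of the tests, while for Col9a1 and Col10a1 a count of 0 allows up to 12 counts.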
